A study of Homo sapiens with 4 samples.

Results

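The genes described here are 70 genes of the kinetochore, the mitotic kinases and the anaphase-promoting complex (APC/C) that have their own symbol in the array's platform annotation. The rule goes by symbol: every CENP, CDCA, BUB1, BUB3, AURK, PLK, NEK, ANAPC, SKA, HAUS, SPC24, SPC25, cyclin A and cyclin B name, together with NDC80, NUF2, TPX2, TTK, CDK1, CDC20, MAD2L1 and BIRC5. It found 70 of the 14884 genes with 1 symbol, each with 1 probe set. NUF2, TPX2, CENPE, CENPF, SPC24, SPC25 and the HAUS genes of the augmin complex had no named probe set and are not analysed here. Other symbols that the rule covers are likewise absent from the 70, among them NEK1, CCNA1, CENPB and CENPS. Of the 70, 3 matched by the start of their name only: ANAPC1P1 and ANAPC1P2 are pseudogenes of ANAPC1, and CENPBD2P is a pseudogene of a CENPB-domain gene. Probes of a pseudogene can also bind transcripts of its parent gene.

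The kinetochore is the protein platform that ties a chromosome's centromere to the spindle. Its inner layer is built of CENP proteins on centromeric chromatin, and its outer layer, with the NDC80 complex at the core, grips microtubules. The spindle checkpoint delays chromosome separation until every kinetochore is attached. Cyclin-dependent kinase 1 and the aurora, polo-like and NIMA-related kinases drive entry into mitosis and spindle assembly. The APC/C, a ubiquitin ligase, then ends mitosis by marking cyclin B and securin for destruction. Many of these transcripts, such as those of the B-type cyclins, peak as cells reach G2 and mitosis, so in a growing culture their level follows the share of dividing cells, whereas subunits such as those of the APC/C core are made throughout the cycle.

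RNA came from RWP-1 cells, an established human pancreatic cancer cell line, on 4 single-channel oligonucleotide arrays. Cells labelled rGAL1, read here as recombinant galectin-1 (a sugar-binding protein that cells secrete), gave 2 arrays, and untreated cells labelled Ctrl gave 2; the labels give no dose, time or vehicle, and all 4 arrays share the cell line. Each title also carries a number, 1 or 2, and the arrays are called rGAL1 2, rGAL1 1, Ctrl 2 and Ctrl 1 after it. The labels do not say whether the number stands for a culture, a day or a labelling run, nor do they tie the arrays of a group to separate cultures. A p-value here therefore reflects the spread among 4 arrays, pooled in part over all probe sets, and that spread may be technical. The array rGAL1 2 has a title and source name that place it in rGAL1 and a treatment field that reads as control; it was kept in rGAL1, and results without it, or with it as a control, are given in the closing section.

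Values are log2 expression per probe set after RMA, a method that removes background, brings the arrays to a common scale and combines a set's probes into 1 value. The median over all 53617 probe sets was 4.71, 4.69, 4.71 and 4.72 on rGAL1 2, rGAL1 1, Ctrl 2 and Ctrl 1. The dim level, set at the median of all probe set means, was 4.70. Above it lay 67 of the 70 genes, against 10684 of all 14884 genes with 1 symbol. CCNB3, NEK5 and NEK10 lay below. Of 10 listed epithelial and ductal genes 7 were measured, and all 7 were above the dim level, as are most genes with 1 symbol. KRT18 lay between 12.36 and 12.44, EPCAM between 9.88 and 9.98 and KRT7, the lowest, between 4.76 and 5.37. The fibroblast genes measured, LUM and DCN, were below the dim level on all 4 arrays. Of the other lists, 1 of 3 endothelial, 2 of 2 leukocyte (CD68 and CD14), 2 of 2 acinar (CTRB1 and CPA1) and 2 of 3 endocrine genes were above it. The median differences rGAL1 minus Ctrl were 0.25 for the leukocyte pair and 0.36 for the acinar pair, and their part in the results below was not tested.

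Promoters of genes expressed in G2 and mitosis often carry a cell cycle homology region, TTTGAA or TTCGAA, bound by the MuvB complex, and CCAAT boxes bound by the factor NF-Y. Promoter windows, from 250 bases before to 50 after a transcript's start, were available from RefSeq (GRCh38.p14) for 57 of the 70 genes, 81 windows in all; 12 genes had more than 1 window, some of them overlapping. On either strand, TTTGAA was in 25.9% of the windows of these genes and in 15.2% of all 35116 windows, TTCGAA in 4.94% and 1.45%, and CCAAT in 45.7% and 34.6%. A homology region and a CCAAT box were together in 17.3% of the windows of these genes and in 6.38% of all. A match of letters is not a binding site. The stretches below run from 110 bases before a start to 15 bases from it, in the direction of transcription; they show a mitotic cyclin and its kinase, the APC/C activator, a checkpoint kinase and 2 outer kinetochore genes, with ANAPC2, a core subunit of the APC/C whose window holds neither motif, for contrast. Capitals mark the homology region and the CCAAT box on either strand; on the opposite strand TTTGAA reads TTCAAA, and the CCAAT box reads ATTGG.
CCNB2, cyclin B2, chr15:59105036-59105160, plus strand: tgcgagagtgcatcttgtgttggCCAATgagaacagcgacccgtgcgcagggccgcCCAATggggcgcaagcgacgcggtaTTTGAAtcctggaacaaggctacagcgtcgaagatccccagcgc
CDC20, the APC/C activator, chr1:43358871-43358995, plus strand: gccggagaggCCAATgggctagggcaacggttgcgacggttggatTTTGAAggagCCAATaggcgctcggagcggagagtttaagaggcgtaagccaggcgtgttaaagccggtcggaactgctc
CDK1, the downstream of its listed starts, chr10:60778368-60778492, plus strand: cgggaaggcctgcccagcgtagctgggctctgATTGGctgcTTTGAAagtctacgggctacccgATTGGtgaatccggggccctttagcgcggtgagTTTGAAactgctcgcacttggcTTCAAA
BUB1, a checkpoint kinase, chr2:110678049-110678173, minus strand: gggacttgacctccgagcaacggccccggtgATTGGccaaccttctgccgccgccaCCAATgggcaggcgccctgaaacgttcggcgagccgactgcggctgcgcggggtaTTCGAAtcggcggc
NDC80, of the outer kinetochore, chr18:2571447-2571571, plus strand: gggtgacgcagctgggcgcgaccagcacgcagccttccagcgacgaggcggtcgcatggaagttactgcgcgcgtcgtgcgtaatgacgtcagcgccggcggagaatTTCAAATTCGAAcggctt
SKA3, of the outer kinetochore, chr13:21176538-21176662, minus strand: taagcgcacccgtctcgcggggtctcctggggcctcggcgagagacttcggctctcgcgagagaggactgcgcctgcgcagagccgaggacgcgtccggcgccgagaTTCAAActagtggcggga
ANAPC2, of the APC/C core, chr9:137188546-137188670, minus strand: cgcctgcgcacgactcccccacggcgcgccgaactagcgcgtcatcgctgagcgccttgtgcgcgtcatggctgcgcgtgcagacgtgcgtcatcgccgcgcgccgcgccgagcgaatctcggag
In CCNB2 and CDC20 the homology region began 29 and 65 bases before the start, each beside 2 CCAAT boxes. In NDC80 and SKA3 it lay at the start itself, with no CCAAT box in the stretch. The same stretch at the upstream of the listed CDK1 starts, not shown, held neither motif.

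None of the 70 genes passed the test between rGAL1 and Ctrl, and none between the arrays numbered 2 and 1. With limma, fitted to all 53617 probe sets with Benjamini-Hochberg adjustment, 0 of 70 had an adjusted p under 0.05 in either comparison, where the share of all probe sets called was 0% in each. The smallest adjusted p among the 70 was 0.919 for rGAL1 minus Ctrl and 0.9998 for replicate 2 minus replicate 1. At an unadjusted p under 0.05 there were 3 of 70 genes for rGAL1 minus Ctrl, all with higher means in rGAL1, against 2.98% of all named genes; there were 0 of 70 for replicate 2 minus replicate 1, against 1.91%. Both shares are near those of all genes in this fit, the only fit for which shares over all genes are given at that threshold. Of the 10684 genes above the dim level, 115 with higher and 104 with lower means in rGAL1 were under it. Of the 67 members above the dim level these counts were 2 and 0. The count of 3 ranged from 1 to 7 under the alternatives in the closing section. With 4 arrays the precision is limited: the standard error (SE) of a difference had a median of 0.11 log2 units over the 70 genes for rGAL1 minus Ctrl and 0.12 for replicate 2 minus replicate 1. limma combined each probe set's own spread with a spread pooled over all probe sets, so an SE here is not a gene's own spread alone. The smallest SE among the 70 was 0.098 for rGAL1 minus Ctrl and 0.11 for replicate 2 minus replicate 1. The 95% interval of the difference rGAL1 minus Ctrl lay within 1 log2 unit, or 2-fold, on either side of 0 for 70 of 70 genes, and within 0.5 log2 units, or 1.41-fold, for 62. For replicate 2 minus replicate 1 these counts were 70 and 64.

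The medians over the 70 genes were small and of opposite sign in the 2 comparisons, while single genes went either way. The median difference was 0.036 log2 units for rGAL1 minus Ctrl, with 44 genes higher and 26 lower in rGAL1, and -0.037 for replicate 2 minus replicate 1, with 23 higher and 47 lower in replicate 2. Over all 14884 genes the medians were 0.0056 and -7.4e-05, with 51.7% higher in rGAL1 and 50% lower in replicate 2. Over the 10684 genes above the dim level they were 0.0091 and -0.0013, with 53.2% higher in rGAL1 and 50.6% lower in replicate 2. Both comparisons are drawn from the same 4 arrays. Both rGAL1 arrays lay above both Ctrl arrays in 20 of the 70 genes (28.6%), against 20.2% of all genes, and below them in 9 (12.9%), against 17%. Both arrays numbered 2 lay above both numbered 1 in 7 of the 70 (10%), against 15%, and below them in 13 (18.6%), against 15.1%. In these bulk samples fewer cells in a phase of the cycle and less RNA per cell cannot be told apart.

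Seen array by array, rGAL1 1 stood highest and Ctrl 2 lowest for these genes. The median deviation from each gene's mean over the arrays was 0.011 on rGAL1 2 and 0.034 on rGAL1 1, against -0.029 on Ctrl 2 and 0.0072 on Ctrl 1, where all genes had 0.00094, 0.0074, -0.00032 and -0.0059. The highest of the 4 values was on rGAL1 1 in 31 of the 70 genes (44.3%), against 27.5% of all genes, and the lowest on Ctrl 2 in 26 (37.1%), against 26.5%. The array rGAL1 2 was highest in 12 and Ctrl 1 in 17. The same pair of arrays, rGAL1 1 and Ctrl 2, thus entered the 2 comparisons on opposite sides. Paired by number, the median difference rGAL1 minus Ctrl was 0.041 for number 2 and 0.045 for number 1. The median difference replicate 2 minus replicate 1 was -0.036 within rGAL1 and -0.038 within Ctrl. Without Ctrl 2 the median rGAL1 minus Ctrl was 0.0083, with 38 of 70 higher, and the median replicate 2 minus replicate 1 was -0.0082; without rGAL1 1 the medians were 0.023 and -0.019.

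**Figure D1:**
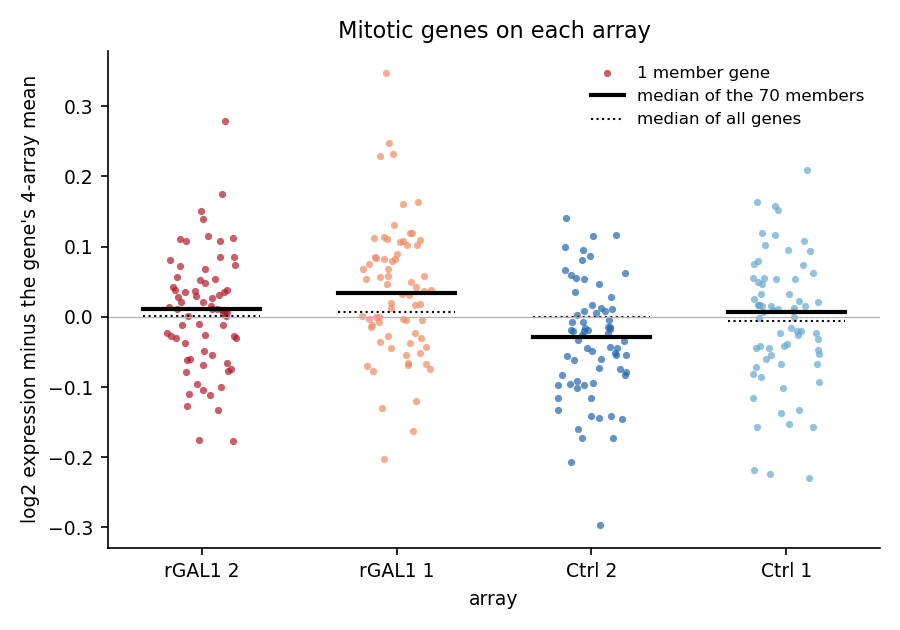
Log2 expression of the 70 genes on each array, as the deviation from the gene's mean over the 4 arrays; each point is 1 gene, the thick bar is the median of the 70 and the dotted line the median of all 14884 genes. The median bar is highest on rGAL1 1 (0.034) and lowest on Ctrl 2 (-0.029), and the points of the 4 arrays overlap widely.

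The 16 genes of the centromere and inner kinetochore had differences rGAL1 minus Ctrl from -0.14 to 0.34, and most had lower means on the arrays numbered 2. Their median difference was 0.023 for rGAL1 minus Ctrl, with 10 of 16 higher, and -0.072 for replicate 2 minus replicate 1, with 12 of 16 lower. CENPP, a member of the subcomplex with CENPO, CENPQ and CENPU, had log2 values of 6.22 and 6.33 on rGAL1 2 and 1, against 5.90 and 5.97 on Ctrl 2 and 1. Both rGAL1 arrays were above both Ctrl arrays, and the difference was 0.34 (SE 0.11), or 1.27-fold, with an unadjusted p of 0.0245 and an adjusted p of 0.919 (limma). Its partners were near 0, with differences of -0.031 for CENPO, 0.053 for CENPQ and 0.0072 for CENPU.

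CENPK, which forms a subcomplex with CENPH and CENPI, had 7.05 and 7.19 on rGAL1 2 and 1, against 6.99 and 7.18 on Ctrl 2 and 1. The arrays numbered 2 were the low ones in both groups, and the difference replicate 2 minus replicate 1, -0.16 (SE 0.11), was the largest in this layer in that comparison. CENPH and CENPI differed by 0.27 (SE 0.18) and 0.19 (SE 0.10) for rGAL1 minus Ctrl and by -0.12 and -0.052 for replicate 2 minus replicate 1. In CENPH the rGAL1 arrays, at 6.29 and 6.71, overlapped the Ctrl arrays, at 6.32 and 6.14. CENPA, the histone H3 variant that marks the centromere, differed by 0.0097 and -0.045 in the 2 comparisons, and CENPC, which binds CENPA nucleosomes, by 0.052 and -0.12. CENPT and CENPW, which form a histone-fold pair, differed by -0.096 and 0.14 for replicate 2 minus replicate 1, and CENPX, which joins that fold, by 0.13. Both arrays numbered 2 lay above both numbered 1 in 2 of the 16 genes, CENPW and CENPX, against 15% of all genes. They lay below both numbered 1 in 3, CENPK, CENPT and CENPV, against 15.1%. CENPL, CENPM, CENPN and CENPV had differences rGAL1 minus Ctrl between -0.14 and -4.8e-05.

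The outer kinetochore showed higher means in rGAL1 and lower means in replicate 2 in 3 of its 4 measured genes, with medians of 0.11 and -0.10. NDC80, the microtubule-binding subunit of its core complex, had 7.65 and 7.76 on rGAL1 2 and 1, against 7.42 and 7.56 on Ctrl 2 and 1. The rGAL1 arrays were above the Ctrl arrays, and within each group the array numbered 2 was the lower; the differences were 0.21 (SE 0.11) for rGAL1 minus Ctrl and -0.12 (SE 0.14) for replicate 2 minus replicate 1. SKA3, of the complex that stabilises the hold on microtubules, had 8.79 and 8.90 on rGAL1 2 and 1, against 8.64 and 8.80 on Ctrl 2 and 1. Here the groups overlapped and the array numbers did not, with differences of 0.12 (SE 0.12) and -0.14 (SE 0.12). SKA1 differed by 0.096 and -0.084, and SKA2, the exception, by -0.057 and 0.013.

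Of the 5 spindle checkpoint genes, 3 had higher means in rGAL1 (median 0.063) and the same 3 had lower means in replicate 2 (median -0.088): MAD2L1, BUB1 and TTK. MAD2L1, whose protein MAD2 inhibits CDC20 at unattached kinetochores, had 7.92 and 8.02 on rGAL1 2 and 1, against 7.74 and 7.86 on Ctrl 2 and 1. The rGAL1 arrays were above the Ctrl arrays by 0.17 (SE 0.11), and replicate 2 was lower than replicate 1 with a difference of -0.11 (SE 0.13). BUB1, a kinase that recruits checkpoint proteins, had 8.35 and 8.49 on rGAL1 2 and 1, against 8.28 and 8.39 on Ctrl 2 and 1. Both arrays numbered 2 were below both numbered 1, by a difference of -0.13 (SE 0.11), while the groups overlapped (0.080, SE 0.11). TTK, the kinase that starts checkpoint signalling, had 7.59 and 7.71 on rGAL1 2 and 1, against 7.55 and 7.61 on Ctrl 2 and 1, again with the array numbers separated (-0.088, SE 0.11) and the groups overlapping (0.063, SE 0.11). BUB1B and BUB3, which act in the mitotic checkpoint complex, differed by -0.040 and -0.0057 for rGAL1 minus Ctrl.

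The mitotic cyclins and CDK1 were the one group in which every measured gene, 5 of 5, had a lower mean in replicate 2. The median of that difference was -0.13, and the range ran from -0.15 to -0.065. The median difference rGAL1 minus Ctrl was 0.050, with 4 of 5 higher. CDK1, the kinase that drives mitotic entry with cyclin B, had 7.94 and 7.98 on rGAL1 2 and 1, against 7.73 and 7.95 on Ctrl 2 and 1. Ctrl 2 was the low array and the other 3 were close together. The differences were 0.12 (SE 0.12) for rGAL1 minus Ctrl and -0.13 (SE 0.12) for replicate 2 minus replicate 1.

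CCNB2, the cyclin whose promoter is shown above, differed by 0.050 (SE 0.12) for rGAL1 minus Ctrl and by -0.14 (SE 0.11) for replicate 2 minus replicate 1. CCNA2, which pairs with CDK2 in S phase and CDK1 in G2, differed by 0.045 and -0.088, and CCNB1, the main mitotic cyclin, by -0.0059 and -0.065. CCNB3, a cyclin best known from meiosis, was below the dim level, with 4.29 and 4.38 on rGAL1 2 and 1, against 3.84 and 4.03 on Ctrl 2 and 1. Its rGAL1 arrays were above its Ctrl arrays, with the largest difference among the 70 genes, 0.40 (SE 0.12), or 1.32-fold (limma, unadjusted p = 0.0225, adjusted p = 0.919). The 95% interval ran from 0.086 to 0.71.

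The 5 genes of the aurora kinases and the passenger complex had a median of 0.019 for rGAL1 minus Ctrl, with 3 higher. The median was -0.045 for replicate 2 minus replicate 1, with 4 lower. AURKB, the kinase of the passenger complex that corrects faulty attachments, had 8.90 and 8.97 on rGAL1 2 and 1, against 8.84 and 8.85 on Ctrl 2 and 1, a difference of 0.093 (SE 0.10). BIRC5, which encodes survivin, a subunit of the same complex, had 7.59 and 7.65 on rGAL1 2 and 1, against 7.58 on each Ctrl array, a difference of 0.043 (SE 0.099). In both genes the groups did not overlap, but their means were apart by less than the SE, which is in part pooled over all probe sets. AURKA, which acts at centrosomes and spindle poles, had 6.97 and 7.07 on rGAL1 2 and 1, against 6.93 and 7.15 on Ctrl 2 and 1. The groups overlapped, and both arrays numbered 2 were below both numbered 1, with a difference of -0.16 (SE 0.11). CDCA8, the passenger subunit borealin, differed by -0.0020 for rGAL1 minus Ctrl and -0.12 for replicate 2 minus replicate 1.

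**Figure D2:**
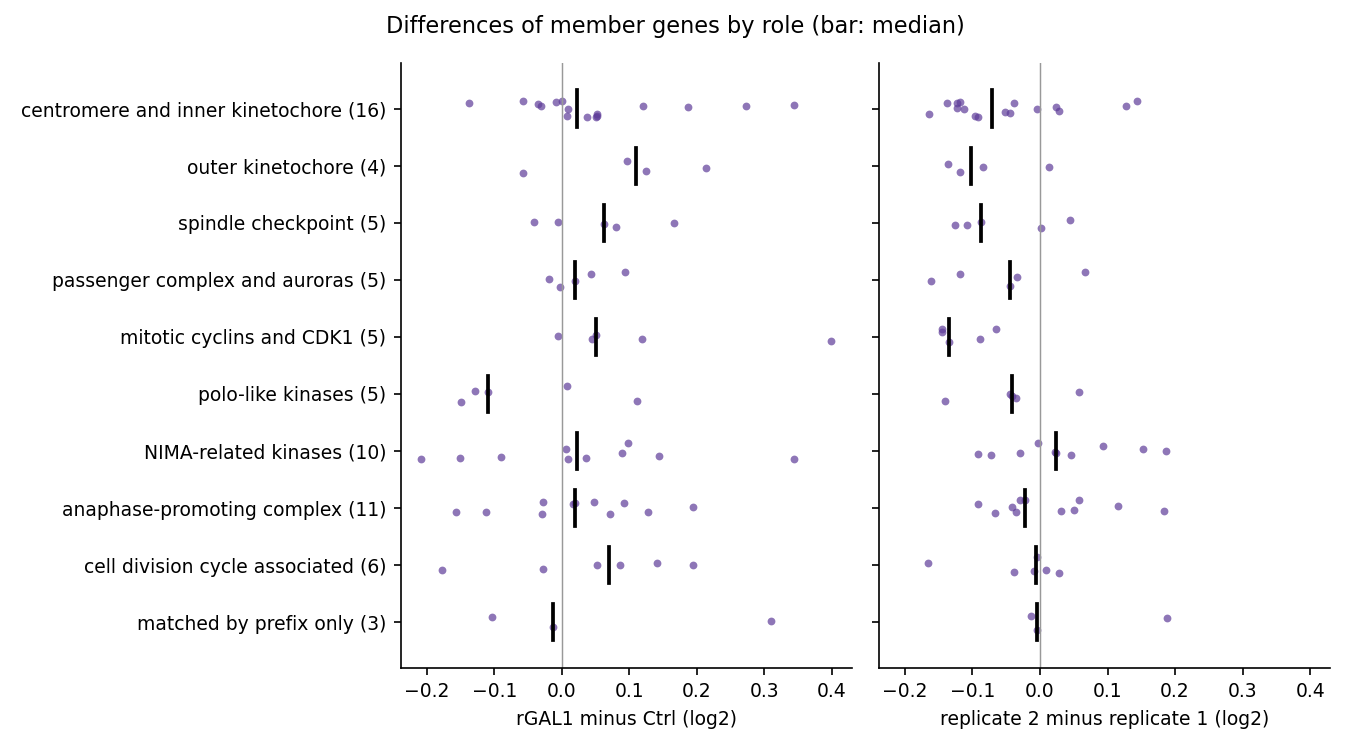
Differences of log2 expression for the 70 genes, grouped by role with the number of genes in brackets; the left panel plots rGAL1 minus Ctrl, the right panel replicate 2 minus replicate 1, each point is 1 gene and the bar is the group's median. The outer kinetochore, checkpoint and cyclin groups have medians to the right of 0 on the left panel (0.11, 0.063 and 0.050) and to the left of 0 on the right panel (-0.10, -0.088 and -0.13), while the median of the polo-like kinases is left of 0 on both (-0.11 and -0.042).

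Polo-like kinases were the one group with at least 5 genes whose median was lower in rGAL1, at -0.11. The 3 lower genes were PLK2, PLK3 and PLK5, which have roles in stress responses or non-dividing cells. Each of the 3 had its rGAL1 arrays below its Ctrl arrays, which held for 17% of all genes. A link between these roles and the differences was not tested. PLK2 differed by -0.13 (SE 0.10) and PLK3 by -0.11 (SE 0.11). PLK5 had 5.57 and 5.67 on rGAL1 2 and 1, against 5.68 and 5.86 on Ctrl 2 and 1. Its differences were -0.15 (SE 0.12) for rGAL1 minus Ctrl and -0.14 (SE 0.13) for replicate 2 minus replicate 1. The difference rGAL1 minus Ctrl of PLK5 was -0.061 without Ctrl 1 and -0.24 without Ctrl 2. PLK1, the mitotic member, differed by 0.0084 and -0.044, and PLK4, which controls centriole duplication, by 0.11 and -0.035.

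The 10 NIMA-related kinases had a median of 0.022 for rGAL1 minus Ctrl and, unlike the groups above, a median above 0 for replicate 2 minus replicate 1, 0.023. NEK3, a member studied mainly outside mitosis, had 6.13 and 6.26 on rGAL1 2 and 1, against 5.91 and 5.79 on Ctrl 2 and 1. Its rGAL1 arrays were above its Ctrl arrays by 0.34 (SE 0.11), or 1.27-fold, with an unadjusted p of 0.0286 and an adjusted p of 0.919 (limma). NEK10, below the dim level, had 4.66 and 4.46 on rGAL1 2 and 1, against 4.50 and 4.33 on Ctrl 2 and 1. Within each group its array numbered 2 was the higher, with a difference of 0.19 (SE 0.12), and both numbered 2 were above both numbered 1. NEK2, which separates centrosomes as mitosis begins, differed by 0.098 for rGAL1 minus Ctrl. NEK9, NEK6 and NEK7, a cascade that supports spindle assembly, differed by 0.036, 0.0061 and -0.21 (SE 0.098), and both rGAL1 arrays of NEK7 were below both Ctrl arrays. NEK4, NEK5, NEK8 and NEK11 differed by 0.090, 0.0089, -0.15 and -0.090.

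The APC/C had medians near 0 in both comparisons, 0.019 for rGAL1 minus Ctrl and -0.022 for replicate 2 minus replicate 1 over 11 genes. CDC20, its mitotic activator, had 9.09 and 9.12 on rGAL1 2 and 1, against 9.13 and 9.14 on Ctrl 2 and 1. Its rGAL1 arrays were below its Ctrl arrays, but the values spanned little on all 4 arrays. The differences were -0.030 (SE 0.098) for rGAL1 minus Ctrl and -0.022 (SE 0.11) for replicate 2 minus replicate 1. ANAPC10, a subunit that helps bind substrates, had 5.07 and 5.04 on rGAL1 2 and 1, against 4.81 and 4.90 on Ctrl 2 and 1. Its rGAL1 arrays were above its Ctrl arrays by 0.19 (SE 0.10), the largest difference in the complex. ANAPC2, the cullin subunit, had 6.50 and 6.38 on rGAL1 2 and 1, against 6.55 and 6.30 on Ctrl 2 and 1. The groups overlapped, while both arrays numbered 2 were above both numbered 1, with a difference of 0.18 (SE 0.11). ANAPC11, its RING partner in the catalytic core, differed by 0.12 in the same direction. The scaffold and arm subunits ANAPC1, ANAPC4, ANAPC5 and ANAPC7 differed by 0.13, 0.072, 0.019 and 0.048 for rGAL1 minus Ctrl, and the small subunits ANAPC13, ANAPC15 and ANAPC16 by -0.16, -0.11 and -0.028.

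The 6 cell division cycle associated genes had a median of 0.069 for rGAL1 minus Ctrl and -0.0064 for replicate 2 minus replicate 1. CDCA7L, a MYC-interacting nuclear protein, had 7.48 and 7.52 on rGAL1 2 and 1, against 7.32 and 7.29 on Ctrl 2 and 1. The rGAL1 arrays were above the Ctrl arrays by 0.19 (SE 0.099). CDCA3, which promotes destruction of the kinase WEE1, had 7.07 and 7.16 on rGAL1 2 and 1, against 7.17 and 7.41 on Ctrl 2 and 1. Its rGAL1 arrays were below its Ctrl arrays, and Ctrl 1 was its high array. The differences were -0.18 (SE 0.13) for rGAL1 minus Ctrl and -0.17 (SE 0.14) for replicate 2 minus replicate 1. CDCA2 differed by 0.14, CDCA4 by -0.028, CDCA5, sororin, by 0.053 and CDCA7 by 0.086 for rGAL1 minus Ctrl. Of the pseudogenes, ANAPC1P1 had 5.33 and 5.08 on rGAL1 2 and 1, against 4.96 and 4.83 on Ctrl 2 and 1, a difference of 0.31 (SE 0.13). Its highest value was on rGAL1 2, the array with conflicting labels, and the difference was 0.19 without that array and 0.041 with it counted as Ctrl. ANAPC1P2 differed by -0.014 and CENPBD2P by -0.10.

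**Figure D3:**
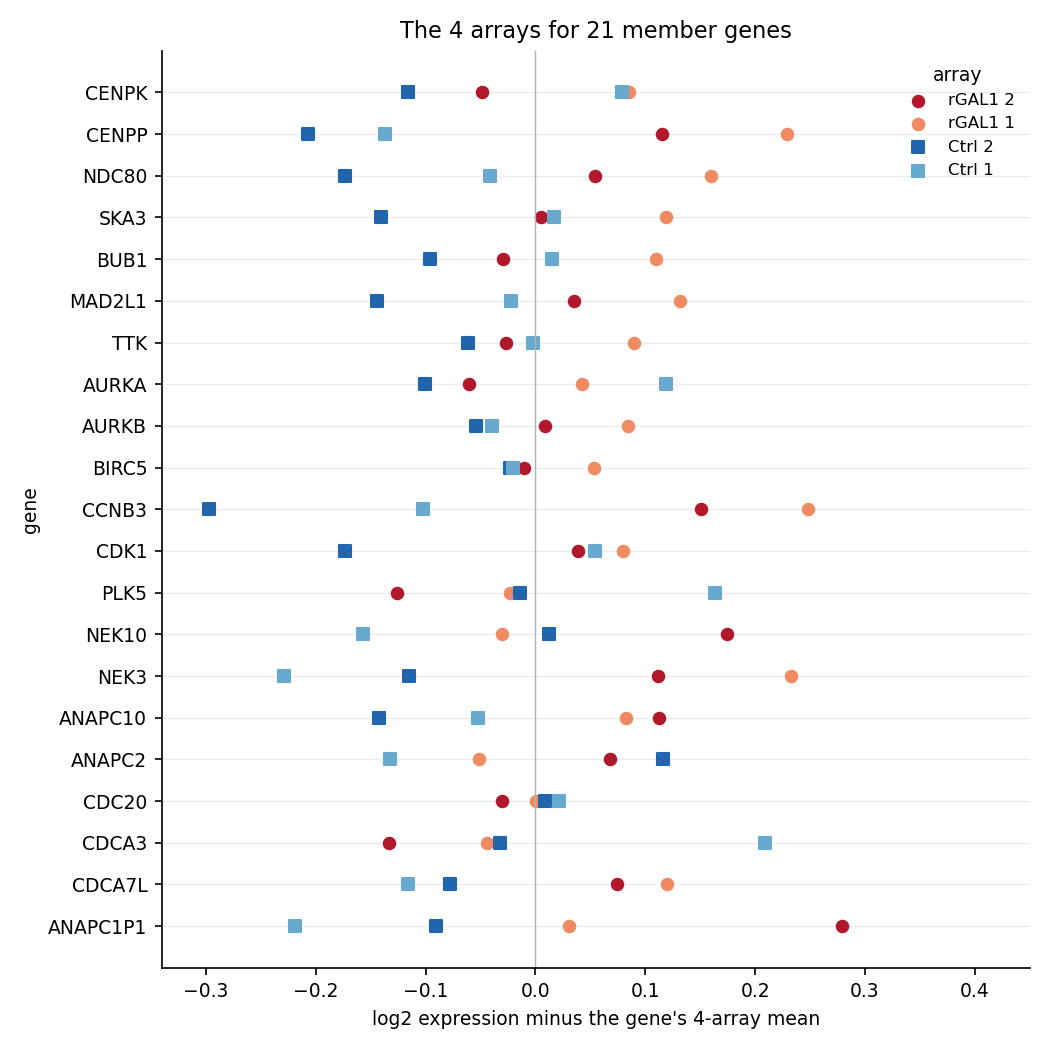
The 4 arrays for 21 of the 70 genes, ordered by role from the inner kinetochore at the top; the horizontal axis is log2 expression minus the gene's mean over the arrays, circles are rGAL1 arrays and squares Ctrl arrays. In CCNB3, CENPP and NEK3 both circles lie right of both squares, by 0.40, 0.34 and 0.34 on average. In CDC20, CDCA3 and PLK5 both circles lie left of both squares. The darker symbols (arrays numbered 2) lie left of the lighter ones in BUB1, TTK, SKA3 and AURKA, and right of them in ANAPC2 and NEK10.

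Medians were computed by the presence of the homology region and, separately, of the CCAAT box. The 23 genes with TTTGAA or TTCGAA in a window had a median of 0.052 for rGAL1 minus Ctrl, with 16 higher, and of -0.044 for replicate 2 minus replicate 1, with 17 lower. The 34 genes with a window but no such letters had 0.028, with 23 higher, and -0.037, with 21 lower. The 13 genes with no window had -0.014, with 5 higher, and -0.013, with 9 lower. By CCAAT box, the 31 genes with it in a window had 0.019 for rGAL1 minus Ctrl, with 21 higher, and -0.044 for replicate 2 minus replicate 1, with 20 lower. The 26 genes with a window but no CCAAT box had 0.052, with 18 higher, and -0.037, with 18 lower. The differences between these sets were not tested. CCNA2 and CCNB1 were among the 34 with no homology region, so a missing match says only that these letters are not in the window.

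Other genes of cell division, from lists that do not overlap with the 70, had medians on the same sides of 0. The lists were written with earlier results of these data known. Partners of the kinetochore and the APC/C outside the symbol rule had a median of 0.030 for rGAL1 minus Ctrl over 18 measured genes of 26 listed, with 13 higher, and -0.067 for replicate 2 minus replicate 1, with 13 lower. In that list SGO2, a protector of centromeric cohesion, had a difference of 0.18 for rGAL1 minus Ctrl, and CDC16, a subunit of the APC/C, a difference of -0.24 for replicate 2 minus replicate 1. Spindle and cytokinesis genes had a median of 0.097 over 8 of 13, with 8 higher in rGAL1, and -0.078, with 8 lower in replicate 2. TOP2A, the topoisomerase of dividing cells, differed by 0.16 and -0.077. RACGAP1, of the central spindle, had 4.63 and 4.80 on rGAL1 2 and 1, against 4.26 and 4.92 on Ctrl 2 and 1, a mean below the dim level with Ctrl 2 as the low array. It differed by 0.13 (SE 0.24) and -0.42 (SE 0.16), and was the 1 listed gene at an unadjusted p under 0.05, 0.0477 for replicate 2 minus replicate 1, with an adjusted p of 0.9998 (limma).

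The condensin and cohesin list had a median of 0.059 for rGAL1 minus Ctrl over 7 of 13 genes, with 6 higher, and -0.055 for replicate 2 minus replicate 1, with 7 lower. SMC4, of condensin, differed by 0.15 and -0.080. Regulators of these promoters, the FOXM1 and DREAM list, had 0.014 over 9 of 13 and -0.050, with 6 lower in replicate 2. LIN52 differed by -0.064 and -0.23, RBL1 by 0.16 and -0.089, LIN37 by -0.16 and 0.11, and FOXM1 itself by 0.059 and 0.011. The mitotic entry and exit list had 0.015 over 11 of 13 and -0.042, with 8 lower in replicate 2. PTTG1, which encodes securin and was likewise dim on average, differed by -0.038 and -0.30 in the 2 comparisons. CKS1B went the other way in replicate 2, with differences of 0.015 and 0.21. G1/S and replication genes had 0.033 over 19 of 21, with 12 higher in rGAL1, and -0.043, with 16 lower in replicate 2. GINS1, of the replicative helicase, differed by 0.18 and -0.091, and CCNE2 by -0.016 and -0.16. Of the 72 measured genes in these lists, 0 passed an adjusted p under 0.05 in either comparison (limma). At an unadjusted p under 0.05 there were 0 of 72 for rGAL1 minus Ctrl, against 2.98% of all genes with 1 symbol. For replicate 2 minus replicate 1 there was 1 of 72, the dim gene RACGAP1, against 1.91%.

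**Figure D4:**
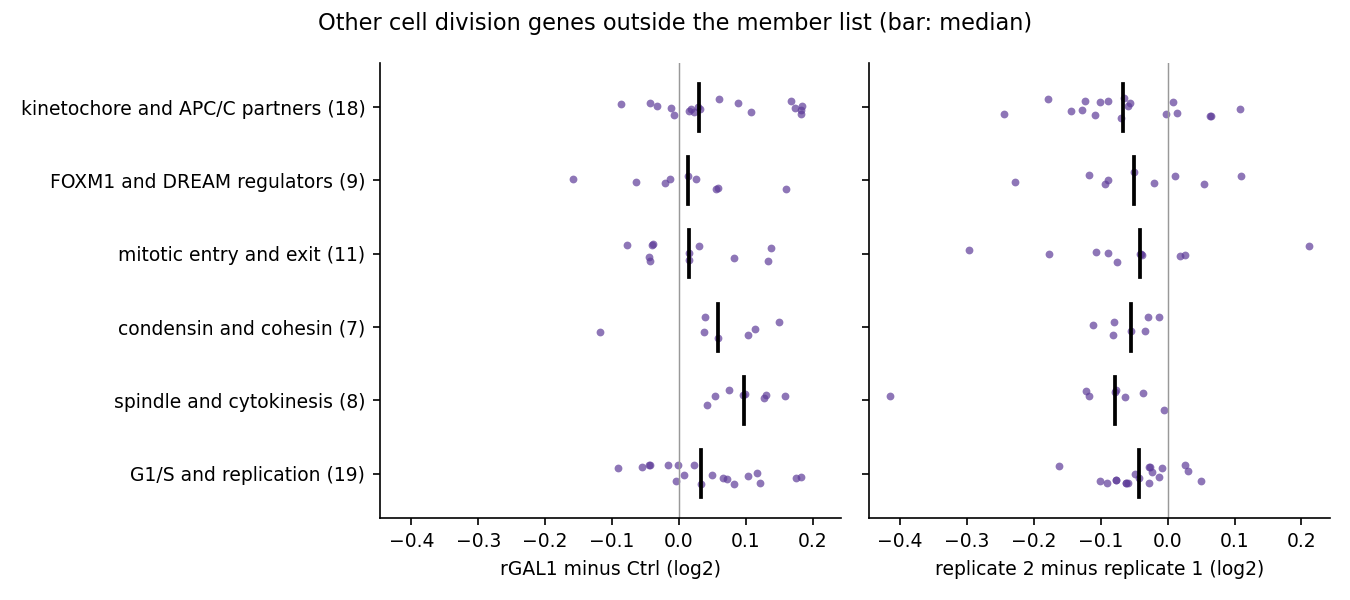
Differences of log2 expression for 72 other cell division genes in 6 lists, with the number of measured genes in brackets; the left panel plots rGAL1 minus Ctrl, the right panel replicate 2 minus replicate 1, each point is 1 gene and the bar is the list's median. All 6 medians are right of 0 on the left panel (0.014 to 0.097) and left of 0 on the right panel (-0.078 to -0.042).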

How the data were processed

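Expression was measured on 4 arrays, 2 of rGAL1 and 2 of Ctrl, from 100 ng of RNA each, per the labels' protocols. The deposited values are log2 expression per probe set; the authors used RMA and limma, per the submitters' processing notes, and their versions were not given in the labels. RMA compresses differences of dim probe sets. No sample column was left unused (0). Of 53617 probe sets, 16098 had 1 symbol in the platform annotation, 0 had several and 37519 none. The brightest probe set stood for a gene. Groups and numbers came from the titles. Both comparisons were fitted with limma 3.58.1 in R 4.3.3 (lmFit, eBayes, no block) on all probe sets and all 4 arrays, giving two-sided p-values adjusted by Benjamini-Hochberg across the whole array, and the fit was tested on simulated data. Differences are rGAL1 minus Ctrl or replicate 2 minus replicate 1. Values on every array are given for members at an unadjusted p under 0.05, for those the rule names one by one and for the largest difference of each role group and comparison, 21 genes; CCNB2, CENPH and others with values were added after their values were seen. Other lists name up to 3 genes with large differences, and FOXM1 was added. The members and lists were chosen with earlier results of these data known. The number was not used as a block in the main fits. Over all 53617 probe sets same-numbered arrays did not deviate together from their group means (r = -0.048). For the 70 genes the median difference replicate 2 minus replicate 1 was nonetheless -0.036 within rGAL1 and -0.038 within Ctrl. A fit with the replicate block is given in the closing section.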

Additional observations from a re-analysis of the deposited data

How the results depend on the processing

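With limma, 0 of the 70 genes passed an adjusted p under 0.05 in either comparison under any fit, each array left out in turn (0 to 0) and the replicate block included, and all alternatives were planned. Over all probe sets the count was 0 in each fit with 2 arrays per group, the replicate block among them, with 1 exception. For replicate 2 minus replicate 1 with an intensity trend in the prior it was 1 (the unnamed probe set 16771462, a difference of 2.59 with a limma adjusted p of 0.0410). At an unadjusted p under 0.05 (limma) the main fits gave 2807 and 2473 of 53617 probe sets in the 2 comparisons. That threshold gave 3 members for rGAL1 minus Ctrl. The median over the members for rGAL1 minus Ctrl was 0.032 after quantile normalization, 0.050 with arrays centred on their medians, 0.046 with rGAL1 2 counted as Ctrl and between 0.0083 (without Ctrl 2) and 0.053 (without rGAL1 2) without 1 array. For replicate 2 minus replicate 1 it was -0.034 after quantile normalization, -0.043 with centring, -0.039 with the pseudogenes left out and between -0.051 (without rGAL1 2) and -0.0082 (without Ctrl 2) without 1 array; treatment as a second term left it at -0.037. The replicate block left the median rGAL1 minus Ctrl at 0.036 and members past the threshold at 0, as the numbers are balanced over the groups. No median changed sign. The 3 members at an unadjusted p under 0.05 for rGAL1 minus Ctrl became 7 with the intensity trend, 5 on probe sets with 1 symbol, 4 above the dim level, 2 with the replicate block and 1 with rGAL1 2 counted as Ctrl, and 1 in each fit without 1 array. Shares over all genes are not given for these fits, so these counts of members cannot be set against a background. With rGAL1 2 counted as Ctrl, CCNB3, CENPP and NEK3 differed by 0.33, 0.30 and 0.31. Without Ctrl 1 CCNB3 was under 0.05 and without Ctrl 2 NEK3 was, while neither of them was without rGAL1 2 or without rGAL1 1, and CENPP was above 0.05 without each of the 4 arrays. Single genes are less firm: of 21 genes, 5 changed sign under an alternative for rGAL1 minus Ctrl and 7 for replicate 2 minus replicate 1, all with an adjusted p above the threshold. Fits without 1 array leave a lone array in a group, taken to vary like the others.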
